A study of Homo sapiens with 4 samples.

Results

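The genes EBF1, IKZF3, RUNX3, IRF8 and CD79A are known for their part in making and keeping a B lymphocyte. EBF1 is a transcription factor that sets the B lineage in its progenitors. IKZF3 encodes Aiolos, a zinc finger factor of the Ikaros family. RUNX3 is a factor of the Runt family, and IRF8 is an interferon regulatory factor that acts with PU.1 in B and myeloid cells. CD79A is the Igα chain, which carries the signal of the B cell receptor into the cell. Cohesin is a ring complex that extrudes chromatin into loops, and SMC1 is one of its core subunits. Loops between a gene and distant DNA are known as one way in which enhancers meet promoters in lymphocytes.

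SMC1 HiChIP, a Hi-C experiment on chromatin that is pulled down with an antibody, was carried out in GM12878, an established B lymphoblastoid line made with Epstein-Barr virus. The 4 libraries were 1 each from cells given aphidicolin (APH, which inhibits the DNA polymerases of replication) at 0.4 µM for 18 h, its vehicle dimethyl sulfoxide (DMSO), hydroxyurea (HU, an inhibitor of ribonucleotide reductase) at 0.2 mM for 18 h, and its vehicle water (H2O). The cell line field of the labels gives GM12878, while the sample titles name another lymphoblastoid line. No genetic change is named in the labels. The question posed by the design is how replication stress bears on cohesin loops.

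The 5 genes were chosen by name among 19970 protein-coding genes of RefSeq, with earlier results of these data known. The shares of all genes and loops given below thus stand beside a set not chosen independently of the data. A loop belonged to one of the 5 when either of its 5 kb anchors overlapped the RefSeq body of the gene. The lists of called loops held 41846 different pairs of bins, of which 72 belonged to the 5 genes. RUNX3 held 29, IRF8 14, IKZF3 12, EBF1 10 and CD79A 7. The rule for the loops uses positions alone. Of the 72 loops, 21 (29.2%, 95% exact binomial interval 19.1 to 41.1) were listed in all 4 libraries, beside 22.8% of all listed pairs, and 33 (45.8%) were listed in 1 library, beside 45.8% of all. A pair that is not listed is not a 0, because each list holds only pairs with at least 12 contacts that the caller accepted.

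The lists differed in length, at 17660 loops with DMSO, 27395 with APH, 22446 with H2O and 21448 with HU, and with 449565 to 732695 contacts. Ratios below therefore use the 9529 loops listed in all 4 libraries, scaled by each library's total over them (300320 to 376948 contacts). With 1 library in each group no difference has a replicate check, no p-value was computed, and every ratio compares libraries, not conditions. The intervals given are 95% exact binomial intervals and cover counting error only. The reads carry no molecular identifiers in the labels, so copies of 1 molecule may be counted more than once and the true error may be wider. A lower count in a bulk library can mean fewer cells with the contact or fewer contacts in each cell, which cannot be told apart.

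Of the B cell markers, EBF1, CD79A and MS4A1 each had a loop listed in all 4 libraries, PAX5 and CD22 had listed loops but none in all 4, and CD79B had no listed loop. Among 15 T cell genes, 10 had a listed loop in at least 1 library, with 26 to 37 loops in each library, and TCF7 had the largest number with 26 different ones; CD8A, CD28, LCK, BCL11B and THEMIS had none. Among 15 myeloid and erythroid genes 7 had one, with 4 loops with DMSO, 12 with APH, 2 with H2O and 4 with HU, and ELANE, LYZ, GATA1, TAL1, HBB, HBA1, CD33 and FCGR1A had none. Of all 19970 protein-coding genes, 9472 had a listed loop in at least 1 library and 4831 had one listed in all 4. Loops show contact and not transcription, and the part of these lists in the results was not tested.

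The promoters come first, because they show which starts lay in loop anchors. RefSeq promoter sequence (GRCh38.p14, the build called hg38, 250 bases before to 50 after a start) was held for 4 of the 5 genes, in 6 windows. Short core motifs of B cell factors were searched on both strands, and matches are in capitals. The distal start of RUNX3 (chr1:24964961-24965260, minus strand) lay at the border of 2 bins that together held 10 of the RUNX3 loops. The proximal start (chr1:24930227-24930526, minus strand) lay in a bin with 4. The starts of IRF8 (chr16:85902580-85902879, plus strand) and of CD79A (chr19:41877029-41877328, plus strand) each lay in an anchor. The start of EBF1 (chr5:159097907-159098206, minus strand) lay in a bin with no listed loop in any library. The next bin upstream, chr5:159100001-159105000, anchored a loop listed in all 4 libraries, so the lack holds for that 1 bin only. The EBF1 window is shown beside the others for this reason.
RUNX3 distal: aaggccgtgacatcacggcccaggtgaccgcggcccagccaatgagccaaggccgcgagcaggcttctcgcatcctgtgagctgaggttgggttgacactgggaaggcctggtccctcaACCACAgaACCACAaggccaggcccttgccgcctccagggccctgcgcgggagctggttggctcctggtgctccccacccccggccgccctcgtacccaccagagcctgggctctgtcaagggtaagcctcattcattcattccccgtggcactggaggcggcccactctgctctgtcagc
RUNX3 proximal: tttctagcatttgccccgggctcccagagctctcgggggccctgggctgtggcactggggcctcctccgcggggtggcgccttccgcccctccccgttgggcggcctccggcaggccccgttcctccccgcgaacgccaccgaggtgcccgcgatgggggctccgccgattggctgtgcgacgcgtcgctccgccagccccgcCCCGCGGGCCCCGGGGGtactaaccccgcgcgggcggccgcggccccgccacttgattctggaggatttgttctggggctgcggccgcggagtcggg
IRF8: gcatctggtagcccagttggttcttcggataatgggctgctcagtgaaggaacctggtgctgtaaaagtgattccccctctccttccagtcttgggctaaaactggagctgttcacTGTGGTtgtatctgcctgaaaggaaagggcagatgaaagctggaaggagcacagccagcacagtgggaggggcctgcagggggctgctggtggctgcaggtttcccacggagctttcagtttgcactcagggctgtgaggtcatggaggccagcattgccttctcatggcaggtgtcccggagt
CD79A: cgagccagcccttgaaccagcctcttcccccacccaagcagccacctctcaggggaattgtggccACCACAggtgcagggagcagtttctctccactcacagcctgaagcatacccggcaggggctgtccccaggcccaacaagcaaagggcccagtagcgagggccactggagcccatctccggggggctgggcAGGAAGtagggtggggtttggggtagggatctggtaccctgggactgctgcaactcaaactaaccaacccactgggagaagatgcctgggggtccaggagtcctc
EBF1: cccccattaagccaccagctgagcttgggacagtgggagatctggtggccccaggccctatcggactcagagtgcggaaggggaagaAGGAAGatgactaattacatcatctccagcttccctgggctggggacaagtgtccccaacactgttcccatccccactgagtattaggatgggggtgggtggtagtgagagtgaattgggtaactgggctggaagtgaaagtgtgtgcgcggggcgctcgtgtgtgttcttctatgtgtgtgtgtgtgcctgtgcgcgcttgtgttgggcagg

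The distal RUNX3 window held 2 matches to the Runt core (TGTGGT or TGCGGT), read as ACCACA on the printed strand and starting 131 and 123 bases before the start. The IRF8 window held 1 such match 134 bases before the start, and the CD79A window 1 at 185 bases before it. That core was present in 19.6% of 35116 promoters of the same length. The proximal RUNX3 window held 3 matches to the EBF1 core CCCNNGGG, starting 47, 39 and 38 bases before the start. The last 2 of these overlap each other. The EBF1 core was present in 19.1% of promoters. The PU.1 and ETS core AGGAAG, present in 33.6%, was found once each in the windows of EBF1 and CD79A. The IRF core GAAANNGAA (8.11%), the octamer ATGCAAAT (1.77%) and the CTCF core AGGNGGCAG (4.68%) had no match in the 6 windows, which says only that these letters are not in them.

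**Figure D1:**
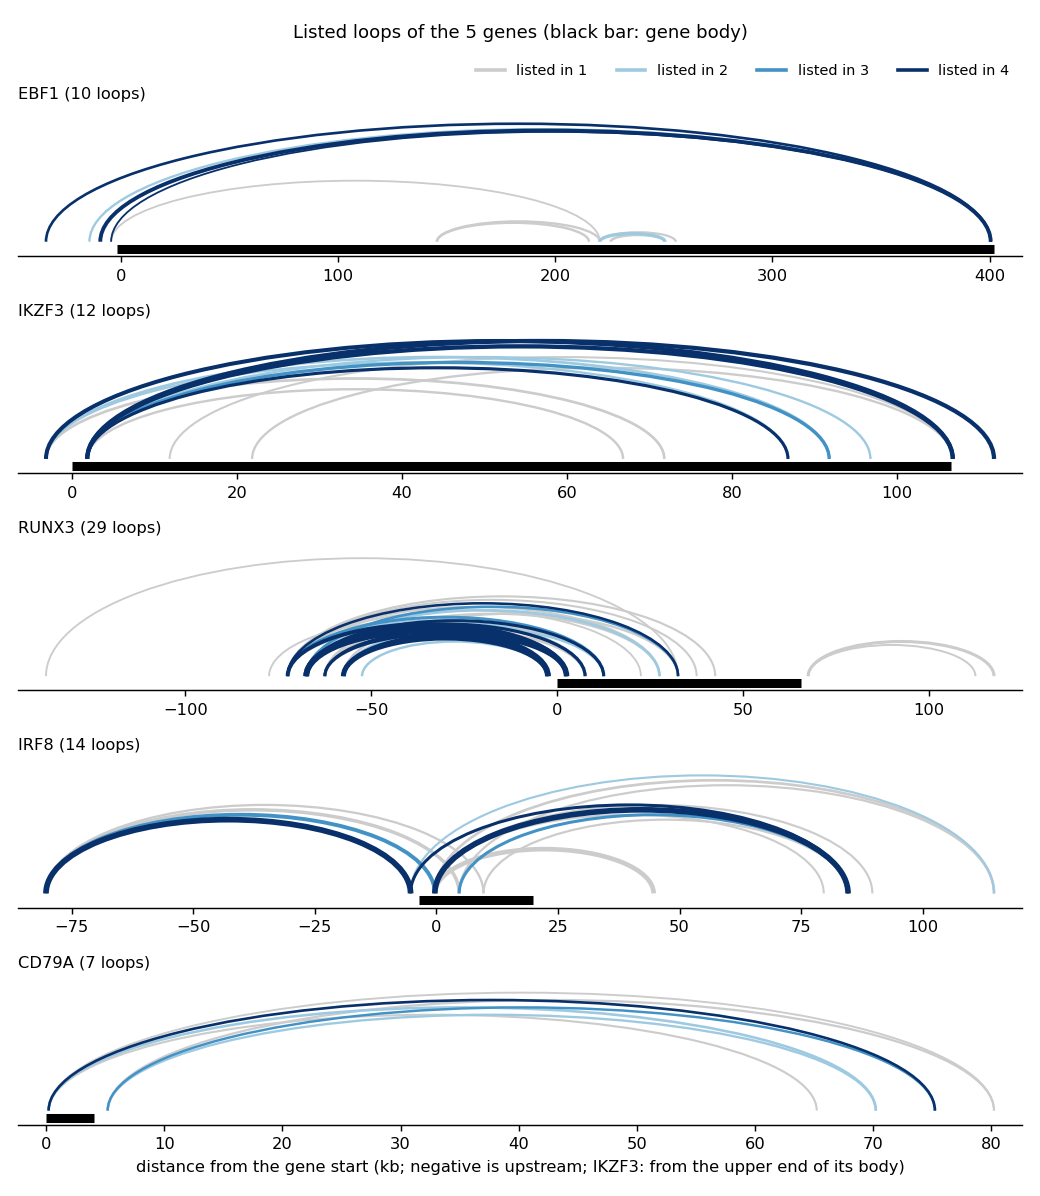
Each arc is 1 listed loop, drawn between the middles of its anchors, with the black bar as the gene body. The horizontal axis is kb from the outermost start of the promoter windows. For IKZF3 it runs from the end of its body with the higher coordinate. Colour gives the number of libraries that list the loop and line width its mean contact count; height follows span and has no unit. The 29 loops of RUNX3 gather on a region upstream, the 7 of CD79A run downstream, and the 3 loops of EBF1 listed in all 4 libraries span the whole gene.

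RUNX3 (chr1:24899511-24965138, 65.6 kb, minus strand) had the most loops of the 5 genes. Of its 29 loops, 26 ran from the gene to 1 region upstream, chr1:25015001-25045000, which lies 50 to 80 kb before the distal start. The region holds the RefSeq genes MIR4425, a microRNA, and LINC02793, a long non-coding RNA, and no protein-coding gene at the anchors. The 26 loops carried 486 contacts with DMSO, 590 with APH, 638 with H2O and 484 with HU. All 10 RUNX3 loops listed in every library were among them.

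The 3 RUNX3 loops with most contacts ended at or beside the distal promoter. The loop chr1:24965001-24970000 to chr1:25030001-25035000 (65 kb) held 60 contacts with DMSO, 81 with APH, 69 with H2O and 64 with HU. The next, from chr1:24960001-24965000 to the same partner bin (70 kb), held 67, 74, 60 and 60 in that order of libraries. The third, chr1:24965001-24970000 to chr1:25020001-25025000 (55 kb), held 63, 51, 64 and 53. No library was highest in all 3, and their ranges overlap. The bin chr1:24965001-24970000 overlaps the annotated gene by only 138 bases, so most of it is DNA just upstream of the start. RUNX3-AS1, the antisense gene, overlaps the other anchors on the gene from chr1:24930001 up to that bin, and contacts do not tell the 2 strands apart.

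The 2 RUNX3 promoters differed in how many loops they held. The 2 bins of the distal promoter held 10 loops, 7 of them listed in all 4 libraries, with shared contacts of 325 with DMSO, 357 with APH, 341 with H2O and 309 with HU. The bin of the proximal promoter held 4 loops, 1 of them listed in all 4, with 31, 21, 23 and 18 contacts. Scaled to a total of 1000000 shared contacts this was 947 to 1082 at the distal and 55.7 to 103 at the proximal promoter, so the ranges over libraries did not overlap. The distal promoter covers 2 bins and lies nearer to the partner region, and the part of both in the difference was not tested.

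Within the partner region the bin chr1:25035001-25040000 had the most loops to the gene, over the 4 lists together. It anchored 11 loops, 9 of them to RUNX3, and only 0.852% of all anchor bins held as many. Of the 9, 2 were listed in all 4 libraries and the others in some libraries only. The bin reached as far into the gene as chr1:24920001-24925000, 42.5 kb past the distal start, in the H2O library. HU alone listed 2 loops from the other end of the gene, chr1:24895001-24900000, to bins 112 and 118 kb from the start, with 15 and 30 contacts. That bin overlaps the gene by 490 bases.

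**Figure D2:**
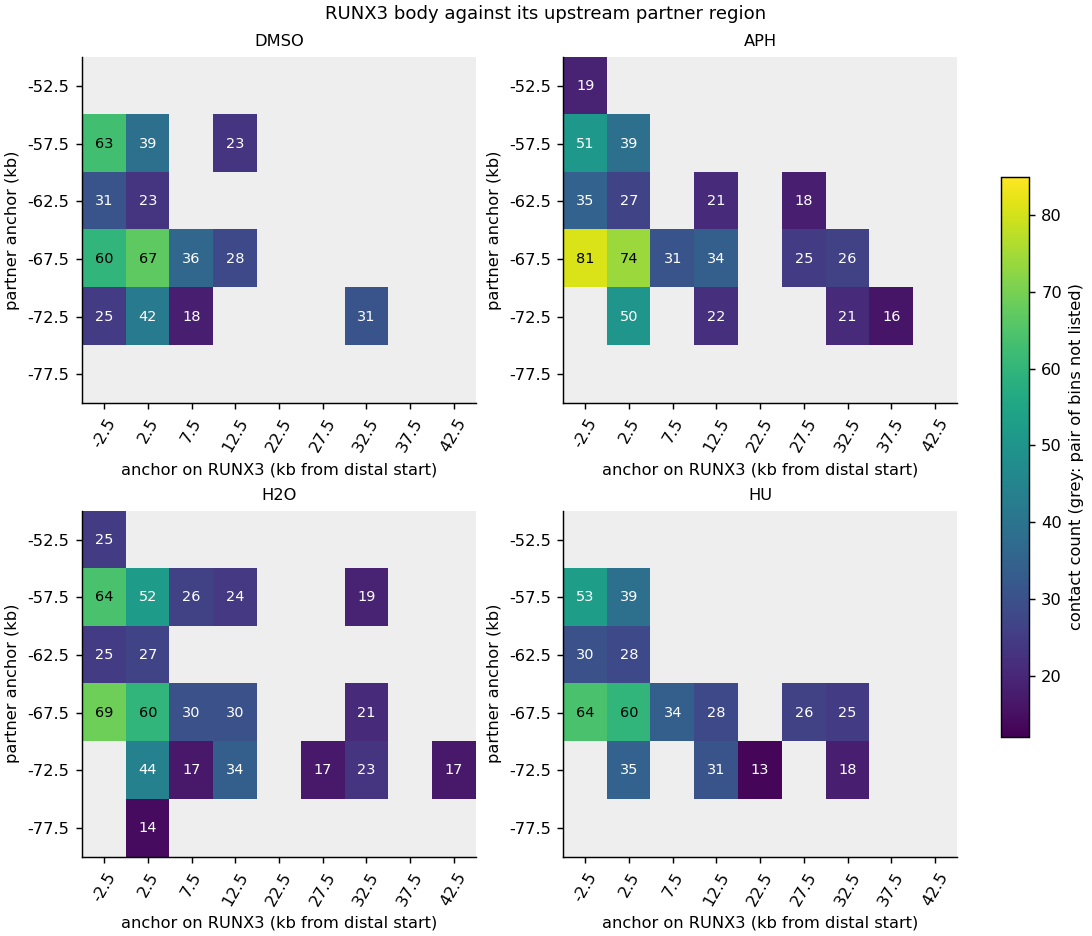
Contact counts (colour and printed number) between anchors on RUNX3 (horizontal axis, middle of the bin in kb from the distal start) and bins of its upstream partner region (vertical axis, kb from the same start), for the 4 libraries; bins of the gene with no loop are left off the axis and grey cells are not listed. The highest cells lie in the columns at the distal promoter in every library, up to 81 in APH, and the scattered cells further into the gene differ between libraries.

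IRF8 (chr16:85899162-85922609, 23.4 kb, plus strand) had loops to both sides. Of its 14 loops, 4 ran upstream to chr16:85820001-85825000, centred at -80.3 kb from the first start of its promoter windows, and 10 ran downstream. Of those 10, 6 went to chr16:85980001-85995000, 3 to chr16:86015001-86020000 and 1 to chr16:85945001-85950000. LOC124903741 and LOC105371388 are the RefSeq genes on these bins, and no protein-coding gene was on them.

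The IRF8 loop with most contacts joined chr16:85820001-85825000 and chr16:85895001-85900000 (75 kb), with 53 with DMSO, 75 with APH, 57 with H2O and 82 with HU. The 2 libraries of drug-treated cells were above both vehicle libraries. The body of IRF8 begins in this anchor, at chr16:85899162, and takes up only 839 bases of it. The starts of both IRF8 promoter windows lie in the next bin, chr16:85900001-85905000. That bin had its strongest loop downstream, to chr16:85985001-85990000 (85 kb), with 64, 74, 62 and 64 contacts. The loop from chr16:85895001-85900000 to the same downstream bin (90 kb) held 26, 41, 25 and 25. Scaled to a total of 1000000 shared contacts, the 85 kb loop stood at 213 with DMSO, 196 with APH, 190 with H2O and 199 with HU, and the 90 kb loop at 86.6, 109, 76.8 and 77.6. DMSO was thus highest in the first and APH in the second.

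The upstream and downstream partners of IRF8 also met each other across the gene. The bin chr16:85820001-85825000 anchored 17 loops in all, and 0.0826% of anchor bins held as many. The bin chr16:85985001-85990000 anchored 14 (0.279%), and chr16:86015001-86020000 anchored 10 (1.17%). The loop over the gene from the first to the second of these (165 kb) held 149 contacts with DMSO, 170 with APH, 159 with H2O and 142 with HU. The loop from the first to the third (195 kb) held 169, 178, 177 and 138. Both held more contacts in every library than any loop with an anchor on IRF8, although they are longer. A bin just outside the gene, chr16:85890001-85895000, met the upstream partner with 81, 122, 61 and 96 contacts, so contacts from that partner did not stop at the gene boundary.

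**Figure D3:**
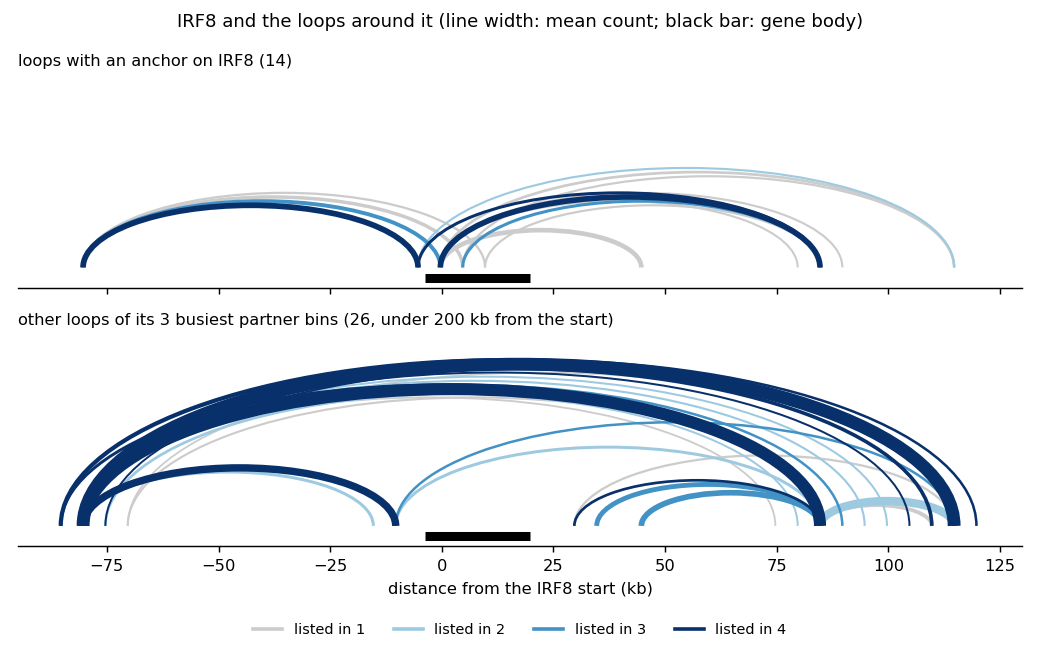
Arcs in the upper panel are the 14 loops with an anchor on IRF8. Those in the lower panel are 26 other loops of its 3 busiest partner bins, with both anchors under 200 kb from the start. The horizontal axis is kb from the first start of the promoter windows, and the body begins upstream of that start, at chr16:85899162. Colour gives the number of libraries that list a loop, line width its mean contact count and the black bar the gene body; the thickest arcs pass over the gene, with 142 to 170 and 138 to 178 contacts.

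IKZF3 (chr17:39757715-39864312, 107 kb) was joined to itself from end to end. Both anchors of 7 of its 12 loops lay on the gene. The bin chr17:39860001-39865000, at the end with the higher coordinate, took part in 6 loops with 159 listed contacts with DMSO, 166 with APH, 203 with H2O and 135 with HU. The bin beyond it, chr17:39865001-39870000, which holds ZPBP2, a gene of a sperm protein, took part in 4 loops to the gene with 98, 43, 94 and 53. In these listed contacts the APH and HU libraries were below both vehicle libraries. APH listed 1 loop at that bin, HU 2, and DMSO and H2O 3 each, and an unlisted pair is not a 0. The 1 loop there listed in all 4 libraries held 54, 43, 41 and 36, with APH above H2O. Scaled as above, it stood at 180 with DMSO, 114 with APH, 126 with H2O and 112 with HU. Both drug libraries were then below both vehicles. Their intervals included no difference against H2O and excluded it against DMSO.

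The loop between the 2 ends of IKZF3, chr17:39755001-39760000 to chr17:39860001-39865000 (105 kb), held 44 contacts with DMSO, 54 with APH, 44 with H2O and 48 with HU. The loop from chr17:39750001-39755000, just past the gene, to the same bin (110 kb) held 49, 52, 42 and 43. The loop from chr17:39755001-39760000 to the ZPBP2 bin (110 kb) held 54, 43, 41 and 36. Scaled as above, HU was highest in the first loop (149, beside 147 with DMSO and 143 with APH) and DMSO in the other two (163 and 180).

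EBF1 (chr5:158695920-159099916, 404 kb, minus strand) is the longest of the 5 genes and had the longest loops. A single bin at the far end of the gene, chr5:158695001-158700000, anchored 4 loops to bins upstream of the start, with spans of 405 to 435 kb. The strongest, to chr5:159105001-159110000 (410 kb) on the non-coding genes LINC02202 and LOC107986467, held 42 contacts with DMSO, 46 with APH, 44 with H2O and 32 with HU. The loop to chr5:159130001-159135000 (435 kb) held 24, 29, 27 and 17. The loop to chr5:159100001-159105000 (405 kb) held 12, 13, 13 and 13, at or near the minimum of the lists. HU was lowest in the first 2 of these and not in the third.

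The loops inside EBF1 were listed in some libraries only. APH listed 2 with 48 contacts and H2O listed 4 with 101, at spans of 25 to 75 kb, and DMSO and HU listed none. A further loop, from the middle of the gene to chr5:159100001-159105000 (225 kb), was listed in APH alone with 13 contacts. These inner loops had counts of 13 to 36, beside the minimum of 12 in the lists.

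CD79A (chr19:41877279-41881372, 4.09 kb, plus strand) is the shortest of the 5 genes, and all 7 of its loops ran downstream, to chr19:41940001-41960000, 62.7 to 82.7 kb from its start. The 1 loop listed in every library, chr19:41875001-41880000 to chr19:41950001-41955000 (75 kb), held 19 contacts with DMSO, 32 with APH, 27 with H2O and 18 with HU. The partner bin chr19:41950001-41955000 anchored 12 loops, as many as 0.601% of bins. Among them were one to RPS19, a gene of the small ribosomal subunit, with 24, 32, 36 and 30 contacts, and one to ARHGEF1, with 27, 29, 17 and 21. The loops of CD79A were thus not apart from those of its neighbours, and its second anchor, chr19:41880001-41885000, also overlaps ARHGEF1. RABAC1, which encodes a Rab-binding membrane protein, lies on the last bin of the partner region.

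The 72 loops were of 3 kinds. With the end of higher coordinate taken as the start of IKZF3, in 12 both anchors lay on the same gene, in 40 the partner lay upstream and in 20 downstream. An anchor covered a promoter window in 24, and the 12 loops of IKZF3 could not be among these because no window was held for it. Their median span was 80 kb, beside 95 kb for all listed loops, and among loops listed in all 4 libraries it was 80 kb beside 115 kb. In 19 of the 21 loops listed in every library, the observed count over the expected one was below the median of the span class. Those medians were 4.89 under 100 kb, 7.81 from 100 to 250 kb and 10.2 from 250 to 500 kb. The exceptions were the 410 kb loop of EBF1 and the 75 kb loop of IRF8. They stood at 14.3 to 21.0 and 6.72 to 10.5 times the expected count. The classes are broad, and the loops of 105 and 110 kb lie at the low edge of theirs. Their values of 3.35 to 4.33 were also below 4.89. RUNX3 gave 10 of the 21 loops, all to 1 partner region, so the loops are not independent of each other. The count itself was above the median of its span class in 13 of 21.

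By listed loops the H2O library had most at the 5 genes, with 47 of its 22446 loops and 1505 contacts, although APH had the longest list. DMSO had 36 of its 17660 loops with 1183 contacts, APH 39 of 27395 with 1333 and HU 37 of 21448 with 1130. The H2O list was longer than that of DMSO, so these counts also follow the length of the lists. The order differed between genes. RUNX3 had 14 loops with DMSO, 17 with APH, 20 with H2O and 16 with HU, while IRF8 had 8, 4, 8 and 8 and CD79A 3, 5, 2 and 4. EBF1 had 4, 6, 8 and 3, and IKZF3 7, 7, 9 and 6. The anchors of RUNX3 covered 50 to 70 kb with a mean of 31.9 to 35.6 contacts in a loop. Those of IRF8 covered 25 kb in APH with a mean of 56.5 contacts, and 35 to 40 kb elsewhere with 34.5 to 39.5. Of the 4 loops that APH listed, 3 are those listed in every library.

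Levels over the loops listed in every library are given as scaled contacts, for a total of 1000000 shared contacts in each library. RUNX3 stood at 1399 with DMSO (interval 1268 to 1539), 1175 with APH (1068 to 1290), 1302 with H2O (1181 to 1432) and 1208 with HU (1091 to 1334). IKZF3 stood at 606 with DMSO (521 to 701), 475 with APH, 491 with H2O and 475 with HU. EBF1 stood at 260, 234, 258 and 192 in that order of libraries. DMSO was highest for these 3 genes. For RUNX3 the order was DMSO, H2O, HU and APH, and the intervals of neighbours in it overlap.

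IRF8 stood at 476 with DMSO, 504 with APH, 442 with H2O and 531 with HU (454 to 617), so both drug libraries were above both vehicles, with overlapping intervals. CD79A stood at 63.3, 84.9, 82.9 and 55.9, from 18 to 32 contacts a library. The highest library was 1.19 times the lowest for RUNX3, 1.20 for IRF8, 1.28 for IKZF3, 1.35 for EBF1 and 1.52 for CD79A. Genes differ in length, so levels are also given per length. Per 5 kb bin of gene body, RUNX3 held 78.3 to 93.2 scaled contacts, IRF8 73.7 to 88.5, CD79A 27.9 to 42.5, IKZF3 21.6 to 27.6 and EBF1 2.38 to 3.21. The ranges of RUNX3 and IRF8 overlap, and per bin EBF1 is below the others in every library. EBF1 is divided by 81 bins, although its 3 shared loops all lie on a single bin of its body. Without the division, EBF1 was above CD79A in every library.

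**Figure D4:**
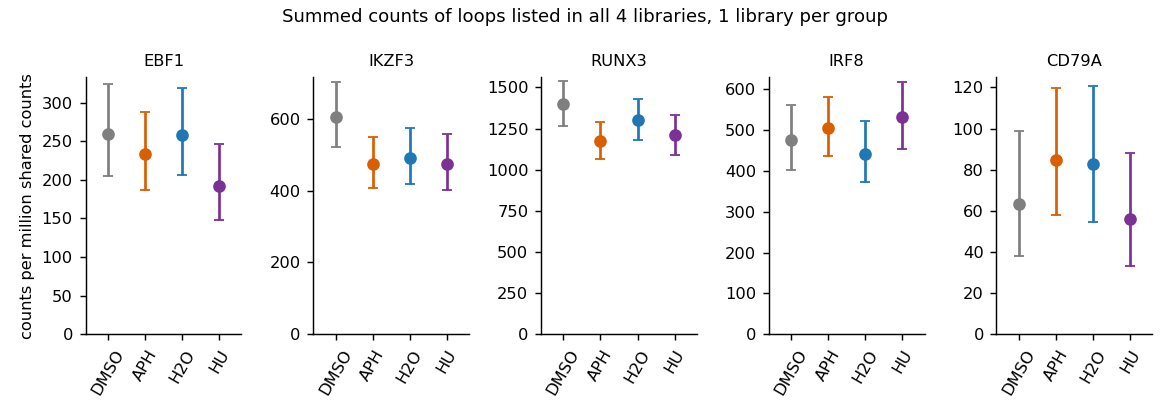
Scaled contacts of each gene, summed over its loops listed in every library (vertical axis, for a total of 1000000 shared contacts, starting at 0, with a scale of its own for each gene), for the 4 libraries; points are single libraries and bars 95% exact Poisson intervals, which cover counting error only. RUNX3 and IKZF3 are highest in DMSO, at 1399 and 606, and the 4 libraries of CD79A overlap widely.

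In APH against DMSO, the log2 ratio was -0.35 for IKZF3 (interval -0.66 to -0.046) and -0.25 for RUNX3 (-0.45 to -0.055), and both intervals lay below a ratio of 1. IRF8 was at 0.082 (-0.24 to 0.41) and EBF1 at -0.15 (-0.61 to 0.30). CD79A was at 0.42 (-0.44 to 1.33) from 51 contacts, under the 100 in the 2 libraries together that a gene needed to be counted. So 2 of 4 genes were called, both lower, where called means that the interval excludes a ratio of 1. Of 2520 protein-coding genes with at least 100 contacts, 9.92% were called and 5.16% were called lower, with a median of -0.0088 and the central 90% from -0.40 to 0.41. Scaled by all listed loops, a choice that shifts every ratio by -0.38, 48.3% of genes were called and 48.2% lower. The IKZF3 ratio was at or above 7.54% of these genes and the RUNX3 ratio at or above 15.6%.

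Both calls rest on the DMSO library. Against the other vehicle, APH vs H2O, IKZF3 was at -0.049 (-0.37 to 0.27) and RUNX3 at -0.15 (-0.34 to 0.048), and none of 4 genes was called, beside 12.4% of 2599. In H2O against DMSO, where neither library had a drug, IKZF3 was at -0.30 (-0.62 to 0.012) and RUNX3 at -0.10 (-0.30 to 0.095). None of 4 genes was called there, beside 4.69% of 2387 genes. The distance of IKZF3 between the 2 vehicles was thus nearly as large as that between APH and DMSO. Divided by the expected count, neither gene was called in APH against DMSO: IKZF3 was at -0.20 (-0.50 to 0.11) and RUNX3 at -0.12 (-0.32 to 0.075). IKZF3 was also not called with anchors within 5 kb of the gene ends (-0.19, -0.43 to 0.058) or centred on the body (-0.24, -0.60 to 0.12). With anchors matched within 1 bin, which adds loops that some libraries do not list, IRF8 was called lower (-0.68, -0.95 to -0.42) and CD79A higher (0.69, 0.22 to 1.18).

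In HU against H2O none of the 4 genes was called, beside 16.5% of 2452 genes. IRF8 was at 0.26 (-0.064 to 0.59) and EBF1 at -0.42 (-0.92 to 0.0685). RUNX3 was at -0.11 (-0.31 to 0.094) and IKZF3 at -0.049 (-0.38 to 0.28). CD79A was at -0.57 (-1.52 to 0.34) from 45 contacts. In HU against DMSO, IKZF3 (-0.35, -0.67 to -0.033) and RUNX3 (-0.21, -0.41 to -0.0090) were called lower, 2 of 4 genes, beside 13.7% of 2364 called and 7.02% called lower. APH vs DMSO, HU vs DMSO and H2O vs DMSO share the DMSO library, so their values are not independent of each other.

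**Figure D5:**
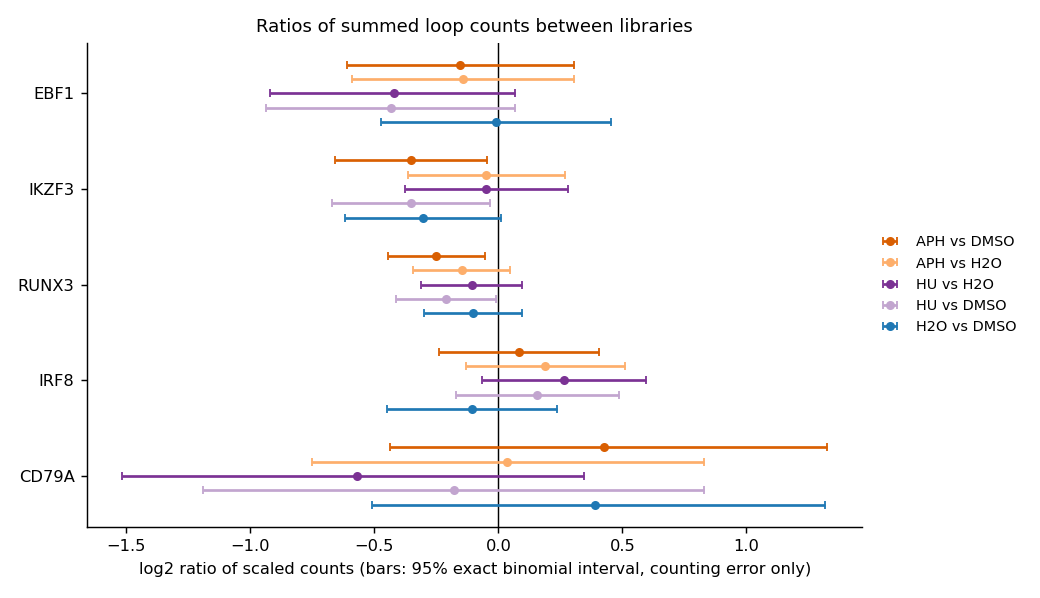
Log2 ratios of the scaled counts between libraries (horizontal axis; 0 is no difference) for the 5 genes, with 95% exact binomial intervals for counting error; colours are the 5 comparisons. The intervals of IKZF3 and RUNX3 lie below 0 only in the comparisons of APH and HU with DMSO, and those of CD79A are the widest.

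Loop by loop, 3 of the 21 shared loops were called in APH against DMSO, all lower, beside 5.50% of 9529 loops. They were the IKZF3 loop to the ZPBP2 bin (43 contacts against 54, log2 ratio -0.66, -1.27 to -0.052), the RUNX3 loop from the proximal promoter to chr1:25035001-25040000 (105 kb, 21 against 31, -0.89, -1.76 to -0.044) and the RUNX3 loop over 55 kb named above (51 against 63, -0.63, -1.20 to -0.077). The strongest RUNX3 loop was at 0.11 (-0.39 to 0.61) in the same comparison, so the loops of RUNX3 differed in sign. Over the 21 loops 17 ratios were below 0, with a median of -0.15 beside -0.023 over all shared loops. The 3 loops of EBF1 and the 4 of IKZF3 were all below 0, as were 9 of 10 of RUNX3, and 2 of 3 of IRF8 were above.

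In HU against H2O 1 of the 21 loops was called, beside 7.38% of loops. It was the 75 kb loop of IRF8 to its upstream partner, with 82 contacts against 57 (0.54, 0.035 to 1.05). The 2 shared downstream loops of IRF8 were at 0.016 and 0.062. The higher value of the gene over its shared loops thus came from this upstream loop. A further upstream loop, to the bin of the promoter windows, was not listed in APH and went the other way. It held 35 contacts with HU and 50 with H2O, or 108.7 and 153.5 when scaled. Of the 21 ratios 11 were below 0 and 10 above. In H2O against DMSO none of the 21 was called, beside 2.62% of loops, and 16 ratios were below 0. With many neighbouring bins sharing the same anchors, the 21 loops are not independent of each other.

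Other genes of B cells are read against the same shares of all genes, 9.92%, 16.5% and 4.69% called. Of all 19970 protein-coding genes, 9472 had a listed loop and 4831 a shared one, to be set beside both lists below. Among 20 other B cell transcription factors, 19 had a listed loop and 10 a shared one, and of the 6 with at least 100 contacts none was called in APH vs DMSO, HU vs H2O or H2O vs DMSO. Their median log2 ratios were -0.041, -0.13 and 0.045 in that order. SPI1, which encodes PU.1, had shared contacts of 244 with DMSO, 310 with APH, 266 with H2O and 242 with HU. POU2F2, which encodes OCT2, had 266, 325, 307 and 275, and its coactivator POU2AF1 had 247, 274, 287 and 245. PAX5, the factor that holds B cell commitment, had 7 listed loops and no shared one, and ZEB2 had no listed loop.

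Among 30 genes of B cell receptor signalling and the B cell surface, 25 had a listed loop and 13 a shared one. Of those with at least 100 contacts, 0 of 8 were called in APH vs DMSO, 1 of 9 in HU vs H2O and 0 of 8 in H2O vs DMSO, with medians of -0.073, -0.10 and 0.0047. The 1 called was CD38, an ectoenzyme of the cell surface, with 75 shared contacts in HU against 41 in H2O (0.89, 0.32 to 1.47). CD38 held 62 in APH against 29 in DMSO (0.77, 0.11 to 1.46), under 100 contacts together, and both values rest on 1 loop. The 3 genes of this list with most shared contacts were CIITA, the regulator of MHC class II genes, with 164 to 200, the kinase gene BLK with 159 to 189, and the adaptor gene BLNK with 132 to 186.

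In the T cell list none of the genes with at least 100 contacts (3, 3 and 4 in the same order of comparisons) was called. TCF7 held 176 to 237 shared contacts, CD3G 98 to 140 and CD5 51 to 74. CD247 was at -0.85 (-1.48 to -0.23) in APH vs DMSO, from 39 against 56 contacts. KLF1 was the 1 myeloid or erythroid gene with a shared loop, at 19 to 36 contacts, and no gene of that list reached 100. It was at 0.94 (0.098 to 1.82) in HU vs H2O, from 36 against 19 contacts in 1 loop. In APH vs DMSO it was at -0.38 (-1.18 to 0.42).

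The genes whose 4 levels were most like those of each member were sought among 2492 genes with at least 200 shared contacts, by the distance between log2 levels centred on their mean over the 4 libraries. For RUNX3 they were MYO1D (distance 0.020) and BHMT (0.028), for IKZF3 ATP2B2 (0.020) and ARRDC5 (0.051), and for IRF8 SOX12 (0.020) and NFIX (0.032). For EBF1 they were CELSR1 (0.039) and ARMC9 (0.040). For CD79A they were MMS22L (0.117) and GPR142 (0.133), further off than for the other 4 genes. MYO1D, for example, stood at 1036 scaled contacts with DMSO, 862 with APH, 970 with H2O and 885 with HU. The likeness rests on 4 libraries and is a description only.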

How the data were processed

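SMC1 HiChIP loop lists of 4 GM12878 libraries, 1 per group, were used; groups came from the treatment in the labels, whose titles name another lymphoblastoid line than the cell line field. Per the submitters' processing notes, bcl2fastq 2.17, MACS3 3.0.1 and hg38 were used. Aligner and loop caller: not given in the sources used here. Whole contact counts per pair of 5 kb bins were deposited by the authors without normalization or a header, so columns were read from their values. A deposited column that is not whole was taken as the expected count, and a deposited column below 0.01 as the adjusted p-value. The members and gene lists were chosen with earlier results of these data known. The values of 1 B cell marker are not reported here.

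Loops were assigned to the gene bodies of RefSeq GRCh38.p14. Contacts of shared loops, those in every list, were summed per gene and divided by each library's total over such loops, with no pseudocount. Ratios have 95% exact conditional binomial intervals and levels exact Poisson ones. Genes needed 100 contacts in the 2 libraries compared. The named genes are the 5 members, up to 3 loops of each with most contacts, loops whose interval excludes 1, in each other list the 3 genes with most contacts and those called, and the 2 genes nearest in pattern. Spans were classed at 100, 250 and 500 kb. Steps were tested on simulated data. Alternatives covered scaling, vehicle, count minimum, matching of anchors, span class, expected count, gene start, the top loop and thinning. Python 3.11.15, numpy 2.4.6, pandas 2.3.3, scipy 1.17.1 and matplotlib 3.10.9 were used.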

Additional observations from a re-analysis of the deposited data

Results flagged for a closer look

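CD79A, the Igα chain of the B cell receptor, lay on opposite sides of no difference in the 2 drug comparisons. Its log2 ratio was 0.42 in APH vs DMSO (32 contacts against 19) and -0.57 in HU vs H2O (18 against 27). With anchors matched within 1 bin both were called higher, at 0.69 (0.22 to 1.18) and 0.68 (0.13 to 1.24), so the opposite sides depend on which loops are matched. Without that matching both values rest on 1 loop and both intervals (-0.44 to 1.33 and -1.52 to 0.34) include no difference. The difference between the 2 comparisons was not tested, and the 2 vehicles differed by 0.39 (-0.51 to 1.32) for the same loop.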

How the results depend on the processing

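Of 154 gene values under alternatives, 145 moved by less than the counting interval, and 9 moved further. The 2 values called as reported, IKZF3 and RUNX3 in APH vs DMSO, kept their sign; values not called there did change sign, as below. Under all 11 alternatives RUNX3 and IKZF3 stayed below 0, at -0.63 to -0.12 and -0.77 to -0.049, and were called lower under 9 and 7. Scaling by all listed loops shifts every ratio of APH vs DMSO by -0.38, of HU vs H2O by 0.048, and of the vehicles (H2O vs DMSO) by -0.24. It gave IKZF3 -0.73, RUNX3 -0.63 and IRF8 -0.29 in APH vs DMSO, and EBF1 -0.53, with 3 genes called (EBF1, IKZF3 and RUNX3, all lower) beside 48.3% of all genes, and 8 member loops called, all lower, beside 16.9% of loops. Between the vehicles it gave RUNX3 -0.34 and 3 genes called lower, beside 23.4%. Matching anchors within 1 bin adds loops listed in some libraries only. It gave IKZF3 -0.77 and IRF8 -0.68 in APH vs DMSO, with 5 genes called, 4 lower and CD79A higher at 0.69, beside 31.7% of all genes. For HU vs H2O it gave RUNX3 -0.33 and CD79A 0.68 with 4 called, 3 lower and 1 higher, beside 39.3%. Between the vehicles it gave RUNX3 0.18, called higher where the scaling above called it lower, with 2 called beside 24.9%. Divided by the expected count, 0 genes were called for APH vs DMSO beside 8.93%, and 1 gene, IRF8, for HU vs H2O beside 12.3%. In APH vs DMSO 1 gene was called with anchors within 5 kb of the gene start, and 1 with anchors whose middle lies on the body, an alternative chosen after seeing the data. Without the top loop of each gene, 1 was called between the vehicles. With the other vehicle, 0 genes and 0 loops were called for APH, and 2 genes and 3 loops for HU. At least 24 contacts left 23 loops with DMSO, 26 with APH, 31 with H2O and 22 with HU; lists thinned to the lowest total held 36, 31.6, 45.0 and 34.4. CD79A has no value without its top loop or with at least 24 contacts. Causes were not tested. No paired analysis was possible because each group holds 1 library. Depth limits most of all CD79A and EBF1, with 18 to 88 shared contacts a library.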
